A study of Arabidopsis thaliana with 9 samples.

Results

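The JAZ (JASMONATE ZIM-DOMAIN) genes of Arabidopsis thaliana encode the repressors of the jasmonate pathway, and their transcripts were followed here in inflorescence stems in which either of 2 lignin enzymes was impaired. The genes were chosen by locus, from a list of 10 JAZ loci, and kept where a probe set specific to the locus carried its name. That left 7 of the 10: JAZ2 (AT1G74950), JAZ5 (AT1G17380), JAZ6 (AT1G72450), JAZ7 (AT2G34600), JAZ8 (AT1G30135), JAZ9 (AT1G70700) and JAZ10 (AT5G13220), of 14743 genes named in all. JAZ1 (AT1G19180), JAZ3 (AT3G17860) and JAZ12 (AT5G20900) had no named probe set and were not analysed here. The 7 names came from a table in which the authors listed 3783 probe sets, and every one of these differed at least 2-fold between some pair of groups. None of the 10 was named by the platform annotation. A JAZ gene with smaller changes therefore had no name here, and the number of changed members says nothing by itself about the family.

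JAZ proteins bind MYC2 and related transcription factors and hold them inactive with the adaptor NINJA and the co-repressor TOPLESS. When the hormone jasmonoyl-isoleucine accumulates, as after wounding, it joins JAZ proteins to the receptor COI1, and they are ubiquitinated and degraded. The freed factors then switch on jasmonate-responsive genes, among them most JAZ genes themselves, so that the repressors are replaced in a negative feedback. JAZ transcript level is therefore used both as a measure of repressor supply and as a readout of jasmonate response, and transcripts do not show the amount of protein.

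Stems of plants aged 1.5 months, ecotype Columbia-0, came from 3 genotypes with 3 arrays each. HCT-RNAi is an RNA interference line against HCT, an acyltransferase of monolignol synthesis, ccr-1 is a loss-of-function mutant of CCR1, the reductase that opens the branch specific to monolignols, and WT is the unmodified wild type. All plants grew at 21 °C with 16 h of light and 8 h of darkness. The labels do not say which promoter drives the RNAi construct, whether it is 1 transgenic line, or how many plants went into a sample. Each array is an Affymetrix ATH1 GeneChip, which reads a transcript with a set of short probes near its 3′ end, and intensities are given on the log2 scale, on which a difference of 1 is 2-fold.

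The targeted genes were low in their own lines, at 8.97 ± 0.05 for HCT in HCT-RNAi against 12.50 ± 0.06 in WT, and at 10.07 ± 0.09 for CCR1 in ccr-1 against 11.87 ± 0.03 in WT (SD, n = 3 each). Over all probe sets, replicate arrays correlated at 0.997 to 0.999, and pairs drawn from 2 groups at 0.949 to 0.960. The 6 named markers of stem fibres and vessels were called present on all 9 arrays. The groups also differed in the intensity of markers of other tissues and in the 3′ to 5′ ratios of actin and GAPDH, which serve as a measure of RNA quality. The log2 of the summed intensity of 7 floral organ markers was 9.84 to 9.88 in HCT-RNAi and 11.35 to 11.44 in ccr-1, against 7.72 to 7.83 in WT, where AP3 was called absent on every array. That of 8 seed markers was 7.21 to 7.23 in HCT-RNAi and 16.20 to 16.25 in ccr-1, against 7.21 to 7.32 in WT. In the seed markers the ccr-1 arrays thus lay far above the other 6. The sum of the fibre and vessel markers gave 13.27 to 13.39 in HCT-RNAi and 13.42 to 13.45 in ccr-1, against 14.69 to 14.83 in WT. The 3′ signal of actin exceeded its 5′ signal by 4.36 ± 0.02 in HCT-RNAi and 3.86 ± 0.04 in ccr-1, against 3.98 ± 0.06 in WT. For GAPDH the excess was 1.78 ± 0.12 in HCT-RNAi and 1.61 ± 0.05 in ccr-1, against 1.46 ± 0.06 in WT. The HCT-RNAi arrays had the highest mean in both ratios, and the ccr-1 mean lay below WT for actin and above it for GAPDH.

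Every one of the 7 JAZ transcripts was lower in both lignin lines than in WT. In HCT-RNAi all 7 fell at least 2-fold, and JAZ7, JAZ8 and JAZ10 fell to between 4.40% and 13.4% of WT. In ccr-1 all 7 fell as well, 4 of them at least 2-fold, and the lowest was JAZ7 at 29.4% of WT. When ccr-1 was set against HCT-RNAi, 6 were higher in ccr-1, and JAZ5 was not told apart. The calls are from limma's moderated test with an adjusted p under 0.05 over 22746 probe sets. In a sample of whole stem, fewer cells of a type and less RNA per cell cannot be told apart. The floral, seed, fibre and vessel markers and the actin and GAPDH ratios given above differed between the same groups, and their part in the JAZ values was not tested.

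These counts have to be read against a strong background. In HCT-RNAi against WT, 27.7% of all probe sets were called lower and 5.79% were lower by at least 2-fold. Within the authors' table the shares were 45.8% and 34.8%. In ccr-1 against WT, 30.1% of all probe sets were called lower and 3.71% by at least 2-fold, and among the authors' probe sets the shares were 44.4% and 22.3%. In ccr-1 against HCT-RNAi, 25.4% of all probe sets and 53.3% of the table were called higher. With each array centred on its own median, 60.5% of all calls in HCT-RNAi against WT were lower, where 45.8% were lower in the values as deposited. In ccr-1 against HCT-RNAi the shares of lower calls were 46.2% and 56.9%. The median change of the 7 genes against WT was -1.62 (HCT-RNAi) and -1.06 (ccr-1), where that of all probe sets was -0.01 and -0.04 and that of the authors' probe sets -0.01 and 0.12.

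**Figure D1:**
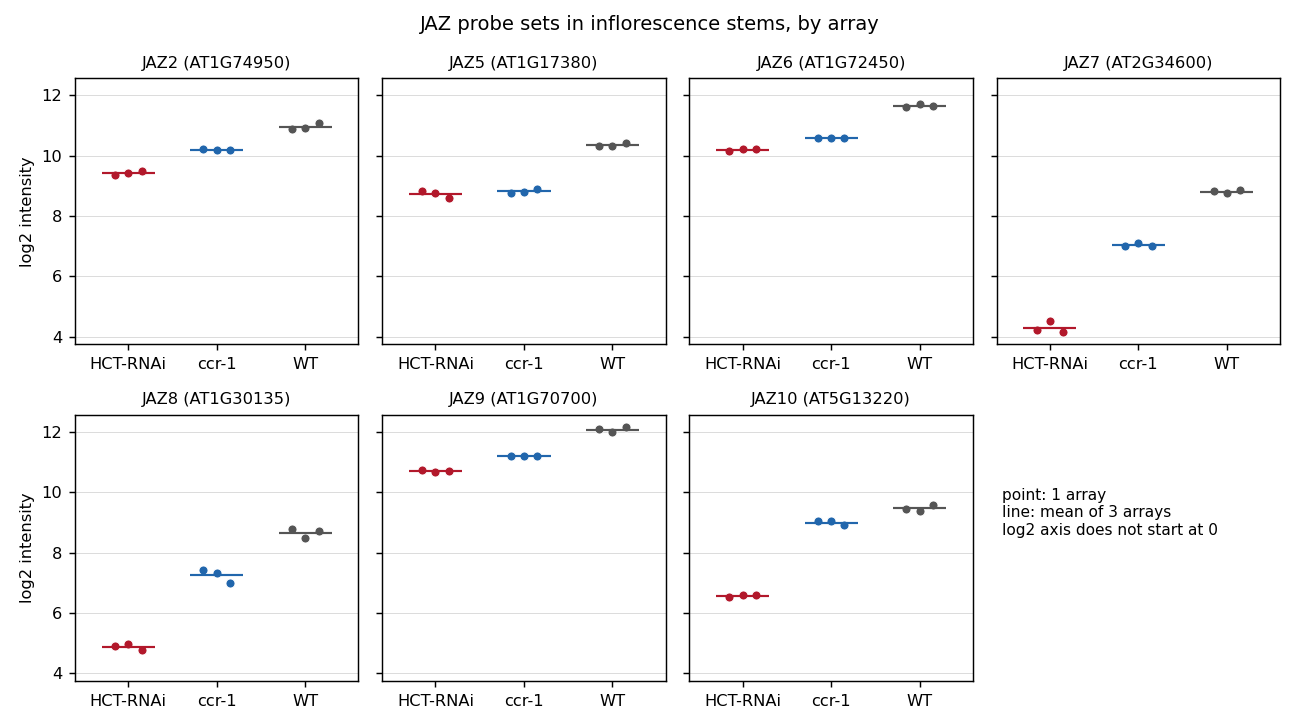
Log2 intensity (vertical axis) of the 7 JAZ probe sets on each array (points) with the mean of 3 arrays (lines), in HCT-RNAi, ccr-1 and WT from left to right. The WT arrays lie above both lines in every panel, and the HCT-RNAi and ccr-1 arrays overlap in the JAZ5 panel.

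JAZ7 and JAZ8 encode small repressors whose degron differs from that of most JAZ proteins, which leaves them poorly bound by COI1, and JAZ8 carries its own EAR motif for TOPLESS. The authors' deposited table describes JAZ8 as the closest relative of JAZ7 in its comparison of proteins. JAZ7 read 4.24, 4.51 and 4.15 on the HCT-RNAi arrays and 7.00, 7.12 and 7.00 on the ccr-1 arrays, against 8.82, 8.74 and 8.86 in WT. The 3 groups lay in 3 separate steps, with gaps of over 1 log2 unit between them. JAZ7 fell in HCT-RNAi by 4.51 ± 0.08 on the log2 scale (SE of the fit, adjusted p = 4.26e-13), a level 22.7-fold below WT and rank 8 among all decreases. In ccr-1 it fell by 1.77 ± 0.08 (adjusted p = 2.39e-09), rank 131. The difference between the lines was itself large, with JAZ7 6.69-fold higher in ccr-1 (adjusted p = 5.30e-11).

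The low end of JAZ7 lay near the floor of the assay. In HCT-RNAi it sat below the lower quartile of all probe sets on each of the 3 arrays, and on 1 of them it was called absent. The other 6 members were called present on all 9 arrays. Since the processing compresses differences near the floor, the size of the JAZ7 decrease in HCT-RNAi may be understated.

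JAZ8 followed the same order. Its intensities were 4.90, 4.99 and 4.79 in HCT-RNAi and 7.42, 7.32 and 7.00 in ccr-1, against 8.77, 8.49 and 8.72 in WT. It had the widest spread of the 7 within a group, 0.22 (SD) in ccr-1, and the groups were still separated by over 1 log2 unit. JAZ8 fell by 3.77 ± 0.11 in HCT-RNAi (adjusted p = 1.34e-11), to 7.32% of WT, and fell by 1.41 ± 0.11 in ccr-1 (adjusted p = 1.71e-07), to 37.6% of WT. Between the lines it was 5.13-fold higher in ccr-1 (adjusted p = 1.73e-09).

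JAZ10 is known for splice forms that resist degradation and for its part in ending the response to jasmonate. It read 6.52, 6.60 and 6.59 in HCT-RNAi and 9.03, 9.04 and 8.90 in ccr-1, against 9.45, 9.38 and 9.57 in WT. Here the ccr-1 arrays stood close below WT, while the HCT-RNAi arrays stood far below both. JAZ10 fell in HCT-RNAi by 2.90 ± 0.06 (95% confidence interval of the change -3.04 to -2.76, adjusted p = 1.85e-12), to 13.4% of WT. In ccr-1 it fell by 0.47 ± 0.06 (interval -0.61 to -0.33, adjusted p = 4.05e-05), to 72.1% of WT, the smallest decrease of the 7 in that line. The lines differed by 2.42 (adjusted p = 1.46e-11), 5.36-fold higher in ccr-1. The ATH1 probe set sums the splice forms it matches, so their shares were not measured.

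JAZ5 and JAZ6 are close relatives, JAZ6 being named by the authors' deposited table as the best match of JAZ5, and JAZ6 is known for a role in defence that varies with the time of day. JAZ5 read 8.82, 8.75 and 8.60 in HCT-RNAi and 8.76, 8.79 and 8.89 in ccr-1, against 10.31, 10.30 and 10.42 in WT. Its HCT-RNAi and ccr-1 arrays overlapped, and both groups lay over 1 log2 unit below WT. It fell by 1.62 ± 0.07 in HCT-RNAi (adjusted p = 5.18e-10) and fell by 1.53 ± 0.07 in ccr-1 (adjusted p = 1.32e-09). JAZ5 was the single member without a call between the lines, with a difference of 0.09 (ccr-1 minus HCT-RNAi, interval -0.06 to 0.24, adjusted p = 0.267).

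JAZ6 read 10.15, 10.22 and 10.23 in HCT-RNAi and 10.57, 10.60 and 10.60 in ccr-1, against 11.59, 11.71 and 11.65 in WT. The groups did not overlap, and the step between the lines was small. It fell by 1.45 ± 0.05 in HCT-RNAi (adjusted p = 1.81e-10), to 36.5% of WT, and fell by 1.06 ± 0.05 in ccr-1 (adjusted p = 4.80e-09), to 47.8% of WT. The difference between the lines, 0.39 (interval 0.27 to 0.51, adjusted p = 4.71e-05), passed the test.

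JAZ2 is known for its action in stomatal defence, and JAZ9 is a repressor that binds MYC2. JAZ2 read 9.37, 9.42 and 9.48 in HCT-RNAi and 10.22, 10.19 and 10.18 in ccr-1, against 10.88, 10.92 and 11.08 in WT. Its ccr-1 arrays lay about midway between the other groups. It fell by 1.53 ± 0.06 in HCT-RNAi (adjusted p = 3.95e-10) and fell by 0.76 ± 0.06 in ccr-1 (adjusted p = 3.99e-07), and between the lines it was 1.71-fold higher in ccr-1 (adjusted p = 3.92e-07).

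JAZ9 read 10.74, 10.68 and 10.70 in HCT-RNAi and 11.21 on each ccr-1 array, against 12.08, 12.00 and 12.16 in WT. The order was again HCT-RNAi, ccr-1, WT without overlap. It fell by 1.37 ± 0.06 in HCT-RNAi (adjusted p = 4.00e-10), the smallest decrease of the 7 there, and fell by 0.86 ± 0.06 in ccr-1 (adjusted p = 4.25e-08). The difference between the lines was 0.50 (ccr-1 minus HCT-RNAi, adjusted p = 6.31e-06). The 3 ccr-1 values of JAZ9 are identical in the deposited data, as are those of 119 probe sets (0.523%) in that group, so the spread of JAZ9 in ccr-1 is not a measure of its error. The standard errors of the fit pool the spread over all 3 groups.

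**Figure D2:**
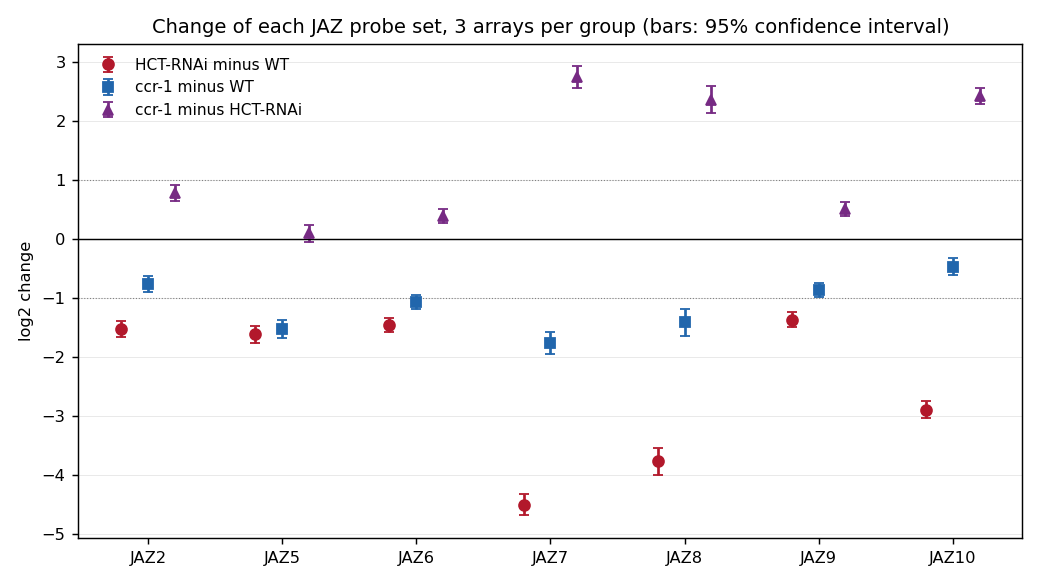
Log2 change of each JAZ gene (vertical axis) with its 95% confidence interval for HCT-RNAi minus WT (circles), ccr-1 minus WT (squares) and ccr-1 minus HCT-RNAi (triangles), from 3 arrays per group. Dotted lines mark a 2-fold change. JAZ7, JAZ8 and JAZ10 have the widest distance between the 2 lines, and the JAZ5 interval between the lines spans 0.

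The 7 genes thus kept different proportions of their WT level in the 2 lines. JAZ7, JAZ8 and JAZ10 differed between ccr-1 and HCT-RNAi by 2.36 to 2.74 log2 units, whereas JAZ2, JAZ5, JAZ6 and JAZ9 differed by 0.09 to 0.77. As a description of likeness, each gene was centred on its mean over the 9 arrays, and the root mean square difference between genes was taken. JAZ6 and JAZ9 were the closest pair at 0.107, JAZ2 and JAZ9 came next at 0.121, and JAZ7 and JAZ8 were 0.323 apart. The pair farthest apart was JAZ7 and JAZ9 at 1.32. Because the distance is not scaled to the size of a change, it does not rank likeness between pairs with small and large changes.

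The arrays of each member in HCT-RNAi and in ccr-1 lay wholly below those in WT, which was so for 31.3% and 32.9% of all probe sets in the 2 comparisons. In 6 members the ccr-1 arrays lay wholly above those of HCT-RNAi, which was so for 27.7% of all probe sets. These shares were not counted within the authors' table, from which the members' names came. Its probe sets all differ at least 2-fold between some groups, which makes separate groups more likely there.

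**Figure D3:**
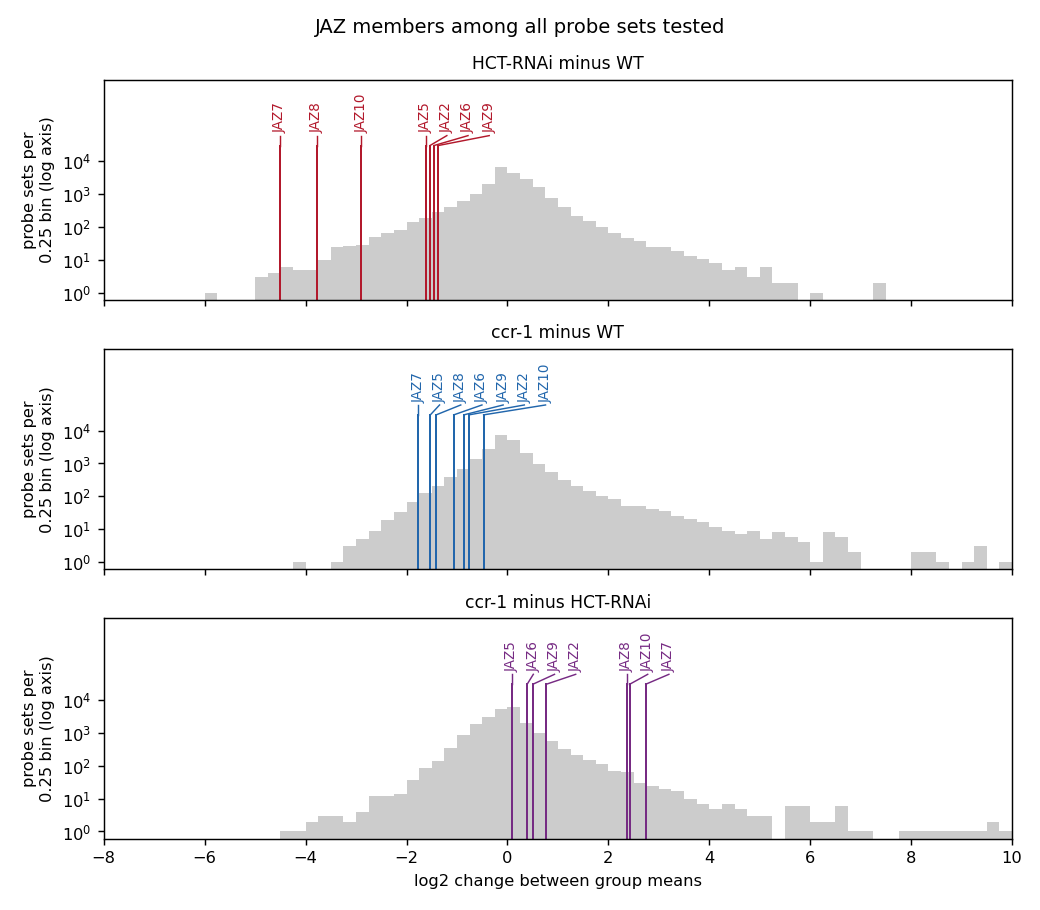
Number of probe sets (vertical log axis) by log2 change in bins of 0.25 (horizontal axis) for HCT-RNAi minus WT, ccr-1 minus WT and ccr-1 minus HCT-RNAi, with the 7 JAZ genes as coloured lines. In HCT-RNAi, JAZ7 and JAZ8 lie in the far left tail, at ranks 8 and 23 among all decreases. In ccr-1 against WT the 7 genes lie between -1.77 and -0.47. JAZ5 alone ranks farther into the tail of decreases there (242) than in HCT-RNAi (535).

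The other genes of the pathway were read from lists of known jasmonate genes, in which named members are again mostly those of the authors' table. Of the receptor and co-repressors (COI1, NINJA, TOPLESS and others), 12 loci were listed and 0 had a named probe set. The same held for 9 other genes of the TIFY family, to which the JAZ genes belong.

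Of 17 loci of jasmonate synthesis 7 were named, and 5 were lower and 2 higher in each line than in WT. The backgrounds for higher calls were 32.9% of all probe sets and 46.2% of the authors' table in HCT-RNAi, and 24.7% and 48.4% in ccr-1. LOX3 and LOX4 encode 13-lipoxygenases, which open the pathway in plastids. LOX3 read 6.24, 6.35 and 6.48 in HCT-RNAi and 8.43 on each ccr-1 array, against 8.83, 8.87 and 8.91 in WT. Its order of groups was that of JAZ10, with ccr-1 close to WT: the changes were -2.51 ± 0.06 in HCT-RNAi and -0.44 ± 0.06 in ccr-1 (adjusted p = 5.43e-12 and 7.46e-05). LOX4 changed by -2.22 ± 0.08 in HCT-RNAi and -0.78 ± 0.08 in ccr-1. AOC3, an allene oxide cyclase, and OPR3, the reductase of the peroxisomal branch, were also lower in both lines, with changes of -1.89 and -1.08 in HCT-RNAi and -0.83 and -0.59 in ccr-1. OPCL1, a CoA ligase of jasmonate synthesis, changed by -0.92 in HCT-RNAi and -1.39 in ccr-1. The 2 members that rose were LOX2, a plastid 13-lipoxygenase, and JMT, which methylates jasmonic acid. JMT rose by 2.40 ± 0.08 in HCT-RNAi and 2.62 ± 0.08 in ccr-1 (adjusted p = 6.81e-11 and 4.18e-11), and LOX2 by 4.65 and 4.00. JMT was called present on 1 of the 3 WT arrays, at a mean of 4.13 in WT, so the size of its rise is uncertain.

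Of 10 loci of jasmonate turnover 8 were named. In HCT-RNAi 7 were lower than in WT and 1, JOX3, was higher, while in ccr-1 2 were lower, 4 higher and 2 not called. The background shares of lower and higher calls against WT are those given above. Set against HCT-RNAi, all 8 were higher in ccr-1, where 25.4% of all probe sets and 53.3% of the authors' table were called higher. Their median difference was 1.13, where the median of all probe sets was -0.01 and that of the authors' probe sets 0.30. This was not particular to turnover. Of the 7 named synthesis genes 5 were also higher in ccr-1 and 2 lower, and of the 7 JAZ genes 6 were higher and 1 was not called. CYP94B1 and CYP94B3 encode cytochrome P450 enzymes that oxidise the active hormone jasmonoyl-isoleucine, and CYP94C1 oxidises it further. CYP94B3 read 5.85, 5.96 and 6.02 in HCT-RNAi and 8.61, 8.87 and 8.73 in ccr-1, against 8.68, 8.57 and 8.53 in WT. The ccr-1 and WT arrays overlapped, and HCT-RNAi lay over 2 log2 units lower. The change was -2.65 ± 0.08 in HCT-RNAi (adjusted p = 1.56e-11) and 0.14 in ccr-1 (interval -0.02 to 0.31, adjusted p = 0.131), which passed the test at 0.21 without ccr-1 array 4 (adjusted p = 0.0406). CYP94B1 changed by -2.94 ± 0.06 in HCT-RNAi and -0.21 ± 0.06 in ccr-1 (adjusted p = 1.02e-12 and 0.00978), and CYP94C1 by -2.25 ± 0.06 and -1.47 ± 0.06. JOX3, a hydroxylase that inactivates jasmonic acid, rose in both lines, by 2.47 ± 0.07 in HCT-RNAi and 2.82 ± 0.07 in ccr-1. ST2A, a sulfotransferase for hydroxylated jasmonate, was lower in HCT-RNAi (-0.50 ± 0.10), where it was called present on 2 of 3 arrays, and higher in ccr-1 (1.26 ± 0.10). JOX2 had no call in ccr-1 (0.02, adjusted p = 0.857).

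The transcription factors that JAZ proteins bind, or that oppose those, moved in both directions. Of 22 loci 14 were named: 4 were lower, 8 higher and 2 not called in HCT-RNAi, and 6 were lower, 7 higher and 1 not called in ccr-1. The background shares against WT given above apply to these counts as well. Between the lines, ccr-1 had 8 of them lower and 4 higher than HCT-RNAi had, where 33.6% of all probe sets and 36.7% of the authors' table were called lower. MYC2, the main activator held by JAZ proteins, read 9.60 on each HCT-RNAi array and 9.23, 9.29 and 9.11 in ccr-1, against 10.39, 10.37 and 10.51 in WT. It was lower in both lines without overlap, changing by -0.83 ± 0.06 in HCT-RNAi and -1.21 ± 0.06 in ccr-1 (adjusted p = 1.47e-07 and 4.97e-09). Between the lines MYC2 was lower in ccr-1, with a difference of -0.39 (adjusted p = 0.000156), where 6 of the 7 JAZ genes were higher in ccr-1. JAM1, a repressor that competes with MYC2, changed by -1.27 ± 0.10 in HCT-RNAi and -0.75 ± 0.10 in ccr-1.

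PAP1 is a MYB activator of anthocyanin synthesis. It read 11.52, 11.55 and 11.51 in HCT-RNAi and 9.30, 9.36 and 9.30 in ccr-1, against 6.50, 6.48 and 6.52 in WT. It rose by 5.03 ± 0.05 in HCT-RNAi and 2.82 ± 0.05 in ccr-1 (adjusted p = 1.08e-14 and 3.00e-13). TT8, its bHLH partner, was called absent on the WT arrays and stood at least 8.70-fold above WT in HCT-RNAi (adjusted p = 1.08e-12). In ccr-1 TT8 was called present on 1 of 3 arrays and read 5.11, 5.12 and 5.23, against 4.09, 4.30 and 4.20 in WT, so that no fold is given. FIL, a YABBY factor, was likewise absent in WT and stood at least 5.97-fold above WT in HCT-RNAi (adjusted p = 4.48e-12) and at least 4.79-fold above it in ccr-1 (adjusted p = 1.93e-11). These bounds set the bright group against the higher of 2 values per array, the lowest intensity called present and the gene's own. For every bound given here the gene's own value was used, so the bound equals the fitted fold. MYB21, a JAZ target in stamens, did not pass in HCT-RNAi (0.00, adjusted p = 0.973) and rose by 1.63 ± 0.08 in ccr-1, where floral organ markers were highest. It was called present on 1 array in HCT-RNAi and 3 in ccr-1, against 2 in WT. The part of floral tissue in these values was not tested.

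Genes known to respond to jasmonate moved in both directions. Of 16 loci 12 were named: 4 were lower, 7 higher and 1 not called in HCT-RNAi, and 3 were lower, 8 higher and 1 not called in ccr-1. Called higher were 32.9% of all probe sets and 46.2% of the authors' table in HCT-RNAi, and 24.7% and 48.4% in ccr-1. The median change of the 12 genes was 0.80 in HCT-RNAi and 0.67 in ccr-1. The defensin PDF1.2 was the gene without a call in either line (0.13 and 0.10). Its means were 4.95 in HCT-RNAi, 4.92 in ccr-1 and 4.82 in WT, close to the lower quartile of all probe sets. No present or absent call was available for it, so its lack of change is uncertain. ERF109, an early transcription factor of wounding, was called absent on all HCT-RNAi arrays and was at least 15.9-fold lower there than in WT (adjusted p = 1.01e-13). In ccr-1 it fell by 2.66 ± 0.06 (adjusted p = 2.03e-12). ORA59, a factor of the ethylene branch, was lower in both lines, changing by -2.37 ± 0.11 in HCT-RNAi and -2.04 ± 0.11 in ccr-1. It was called present on 1 of 3 arrays in each line, so the sizes of these decreases are uncertain. The tyrosine aminotransferase gene TAT3 was lower as well, changing by -1.07 ± 0.13 in HCT-RNAi and -2.25 ± 0.13 in ccr-1. RAP2.6 was absent on the HCT-RNAi arrays, at least 2.94-fold lower than in WT (adjusted p = 1.36e-09), and it rose by 0.72 in ccr-1. Among those that rose, NATA1, an acetyltransferase of jasmonate-induced defence, did so by 4.00 ± 0.06 in HCT-RNAi and 0.62 ± 0.06 in ccr-1. ANAC019, a NAC factor downstream of MYC2, rose by 2.43 ± 0.09 in HCT-RNAi and 3.04 ± 0.09 in ccr-1. CORI3 and the thionin gene THI2.1 had the largest rises of the list, at 7.38 and 4.57 in HCT-RNAi and 5.45 and 6.48 in ccr-1.

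**Figure D4:**
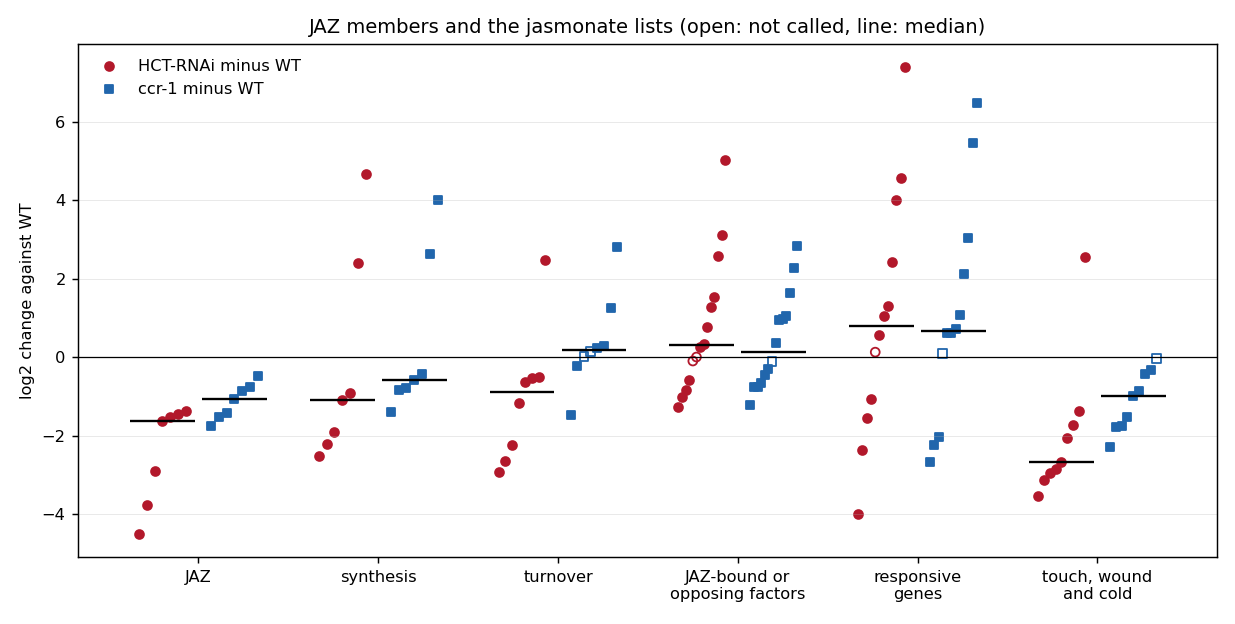
Log2 change against WT (vertical axis) of the 7 JAZ genes and of the named genes of 5 lists, for HCT-RNAi (circles) and ccr-1 (squares), with the median of each set as a line and genes without a call as open symbols. The JAZ genes and, with the exception of CBF3 in HCT-RNAi, the genes of early touch, wound and cold response lie below 0, and the other lists spread to both sides.

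Genes of early touch, wound and cold response, which are induced within minutes as JAZ genes are after wounding, were mostly lower in both lines. Of 12 loci 9 were named. In HCT-RNAi 8 were lower and 1 higher than in WT, with a median of -2.66, and in ccr-1 8 were lower and 1 was not called, with a median of -0.997. Called lower were 27.7% of all probe sets and 45.8% of the authors' table in HCT-RNAi, and 30.1% and 44.4% in ccr-1. WRKY40, a defence regulator, read 5.66, 5.77 and 5.79 in HCT-RNAi and 7.01, 7.09 and 6.86 in ccr-1, against 9.25, 9.16 and 9.43 in WT. It fell by 3.54 ± 0.08 in HCT-RNAi and fell by 2.29 ± 0.08 in ccr-1 (adjusted p = 2.14e-12 and 1.36e-10), and it was called present on 2 of the 3 HCT-RNAi arrays. The calmodulin-like gene CML38 fell by 2.95 ± 0.07 in HCT-RNAi and fell by 1.75 ± 0.07 in ccr-1. The exception was CBF3, a cold-response activator under control of the clock, at 2.56 ± 0.10 in HCT-RNAi and -0.02 in ccr-1 (adjusted p = 3.17e-10 and 0.872). The labels give no time of harvest and no interval between cutting and freezing. Of 10 clock loci 5 were named. All 5 were higher in HCT-RNAi than in WT with a median of 1.22, and in ccr-1 3 were higher, 1 lower and 1 not called with a median of 0.27. The shares called higher were 32.9% of all probe sets and 46.2% of the authors' table in HCT-RNAi, and 24.7% and 48.4% in ccr-1. Of the 5, PRR7 (0.29 in HCT-RNAi) lost its call after median centring (0.19) and without HCT-RNAi array 1 (0.25) or WT array 7 (0.26) or 9 (0.25). The part of harvest in the JAZ values was not tested.

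By the same distance over the 9 arrays, the genes most like each JAZ gene were sought among 14866 named probe sets, all other members left out. JAZ7 was nearest to BXL2, a beta-xylosidase of the cell wall (0.168), and to AT3G06070 (0.174). BXL2 fell by 4.73 in HCT-RNAi and fell by 1.91 in ccr-1. JAZ8 was nearest to the peroxidase gene AT5G64120 (0.163) and to FLA9, a fasciclin-like arabinogalactan protein (0.185). FLA9 fell by 4.00 in HCT-RNAi and fell by 1.44 in ccr-1. JAZ10 was nearest to AT1G65490 (0.104) and AT5G54530 (0.130).

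The members with smaller changes in HCT-RNAi had closer neighbours. The distance is not scaled to the size of a change, so it does not compare likeness between members with small and large changes. Candidates also differ in number: in HCT-RNAi against WT 283 probe sets changed by -1.5 to -1.25 and 4 by -4.75 to -4.5. JAZ6 was nearest to UMAMIT12, of a family of amino acid transporters (0.0413), and to MPK3, a MAP kinase of defence signalling (0.0524). JAZ9 was nearest to ATHB13, a homeodomain factor (0.0526), and to STP4, a sugar transporter (0.0560). JAZ5 was nearest to AT4G32800, an ERF/AP2 factor (0.0709), and to ERD7, a gene of early dehydration response (0.0794), and JAZ2 to AT1G22480 (0.0622) and AT1G35612 (0.0633). With 3 groups behind the 9 arrays, many genes share a profile by their 3 means alone.

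None of these nearest genes belonged to the jasmonate lists. Those lists held only 41 of the 14866 candidates, so this absence says nothing about likeness to jasmonate genes. Among 41 named genes of those lists, the nearest to JAZ10 were CYP94B1 (0.140) and LOX3 (0.186), and the nearest to JAZ9 were JAM1 (0.109) and OPR3 (0.143). JAM1 was also nearest to JAZ2 (0.177) and to JAZ6 (0.193). JAZ5 was nearest to OPCL1 and CYP94C1, at 0.328 each. JAZ7 was nearest to ERF109 (0.587) and JAZ8 to CYP94B1 (0.519), distances larger than those of the other members. The same limit of an unscaled distance holds here.

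**Figure D5:**
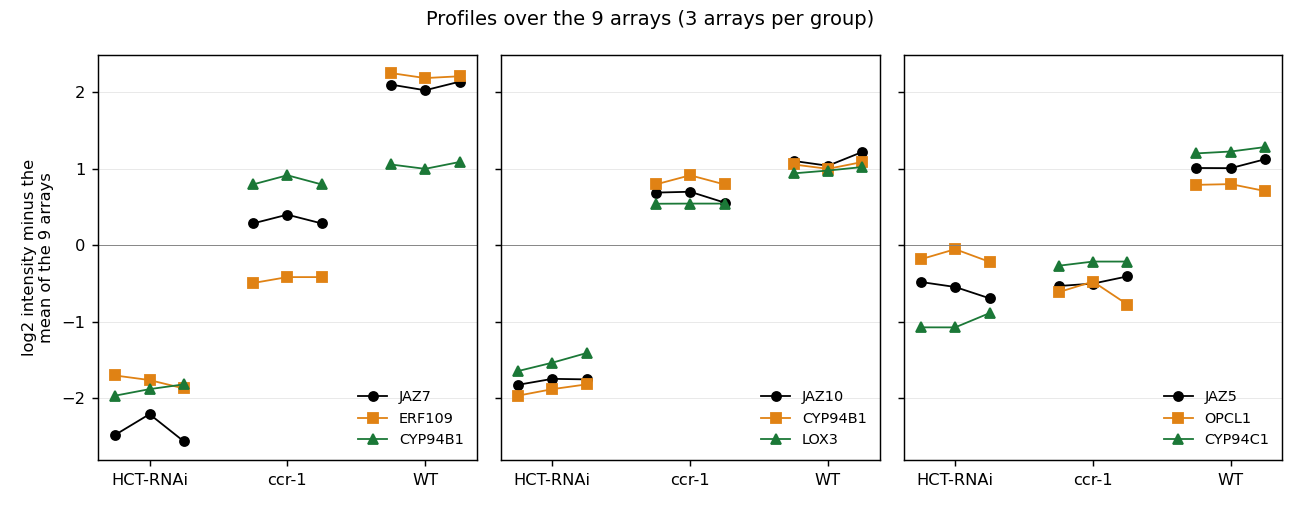
Log2 intensity minus the mean of the 9 arrays (vertical axis) for JAZ7, JAZ10 and JAZ5 (black) and, in each panel, the 2 genes of the jasmonate lists nearest to it, over the arrays of HCT-RNAi, ccr-1 and WT. CYP94B1 and LOX3 follow JAZ10 closely throughout, and the genes beside JAZ7 and JAZ5 lie farther off.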

How the data were processed

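Total RNA (1.5 µg per sample) from inflorescence stems was hybridised to 9 ATH1 arrays, with groups and array numbers taken from the labels. The submitters' processing notes list RMA and MAS5 without versions, and settings were not given in the sources used here. Deposited by the authors was 1 linear intensity per probe set and array. The plan assumed log2 values, and the log2 of the deposited intensities was therefore taken first. A smaller table from the authors, also deposited, holds 3785 rows with the same intensities (largest difference 0), the loci used as names and the present or absent calls. RMA makes the arrays' distributions alike and compresses changes near the floor.

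After removal of 64 control probe sets, 22746 were fitted with limma 3.58.1 in R 4.3.3, with 1 mean per group over all 9 arrays, empirical Bayes moderation and Benjamini-Hochberg adjustment, and called at an adjusted p under 0.05. Adjusted p-values are from this fit, except those given for an alternative. The fit was also run on simulated independent values with 200 probe sets changed. Far more were called in the real data, so that run does not vouch for the p-values given here. Changes are ± SE, and levels ± SD, with n = 3 arrays per group. Nothing in the labels says that arrays came from separate plants, so p-values measure the spread between arrays, which may be technical. The number of arrays limits the precision.

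Names came from the platform annotation or, failing that, from the loci in the authors' table (14873 in all, with RefSeq symbols). Those with a suffix for shared transcripts (1061) and 31 with differing sources were left unnamed. No coordinates or sequences are given. The members and lists were chosen with earlier results of these data known. Of each list, up to 4 called genes with the largest change per comparison with WT were to be named; CYP94B1 in ccr-1, JAM1, OPR3, LOX4 in ccr-1, JOX2, PDF1.2, TAT3, ORA59, RAP2.6 and CBF3 were partly or wholly chosen after their values were seen. The alternatives were a fit of 2 groups, median centring, removal of the dimmest 25% of probe sets, trend and robust priors, and leaving out each array; they were applied to single genes of the lists after the data were seen.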

Additional observations from a re-analysis of the deposited data

Results flagged for a closer look

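In 6 genes of the jasmonate lists the changes against WT were called in opposite directions in the 2 lines. The difference between the lines (ccr-1 minus HCT-RNAi) comes from the same fit. Opposite calls against the same WT arrays nearly fix that difference in advance, so its p-values add no separate evidence. The share of all probe sets called in opposite directions was not counted. Among the turnover genes the difference was 1.75 for ST2A (adjusted p = 1.32e-08), which changed by -0.50 in HCT-RNAi and 1.26 in ccr-1 against WT. It was 1.42 for JOX4 (adjusted p = 1.12e-08), which changed by -1.18 in HCT-RNAi and 0.24 in ccr-1, where the call was lost without ccr-1 array 4 (0.17) or without WT array 8 or 9 (0.23 each). For JOX1 it was 0.83 (adjusted p = 1.31e-06), against changes of -0.54 (HCT-RNAi) and 0.29 (ccr-1). The transcription factor MYC3 had a difference of -0.57 (adjusted p = 1.71e-06), against changes of 0.27 (HCT-RNAi) and -0.30 (ccr-1). The floral repressor TOE1 had one of -1.10 (adjusted p = 2.45e-07), against changes of 0.35 (HCT-RNAi) and -0.76 (ccr-1). RAP2.6 had a fitted difference of 2.27 (adjusted p = 7.12e-11), the same value as a bound of at least 4.83-fold above HCT-RNAi in ccr-1. No JAZ gene moved in opposite directions in the 2 lines.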

How the results depend on the processing

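Under the 13 alternatives run, each of the 7 JAZ genes kept its direction and its side of the threshold in all 3 comparisons, and all 507 recomputed counts (39 counts of JAZ and list genes, 13 alternatives) stayed within 1.5 times the reported ones. JAZ7 in HCT-RNAi against WT ranged from -4.61 to -4.43 and JAZ10 in ccr-1 against WT from -0.51 to -0.42. JAZ5 between ccr-1 and HCT-RNAi ranged from 0.03 to 0.17 with an adjusted p of 0.056 to 0.713. Centring each array on its median moved the median of all probe sets in HCT-RNAi against WT from -0.01 to -0.11 and the share of calls that were lower from 45.8% to 60.5%; in ccr-1 against WT that share moved from 54.9% to 58.8% and in ccr-1 against HCT-RNAi from 56.9% to 46.2%. Relative to that shift the 7 JAZ genes remained lower in both lines. Of 2142 recomputed changes of list genes 2107 kept direction and call, 15 lost and 2 gained the call, and 18 changed sign, all of these without a call. After median centring the sign changed for MYB21 in HCT-RNAi against WT (-0.10), JOX2 in ccr-1 against WT (-0.0103) and, in ccr-1 against HCT-RNAi, EIN3 (0.0711) and PDF1.2 (0.0461). Leaving out 1 array gave MYB21 values of -0.0217 to 0.0415, and in ccr-1 against WT JOX2 values of -0.0244 to 0.069, CBF3 values of -0.11 to 0.0416 and PRR5 values of -0.0401 to 0.23, and EIN3 values of -0.0356 to 0.0467 in ccr-1 against HCT-RNAi. PRR7 in HCT-RNAi, and JMT and ORA59 between the lines, lost the call under some alternatives. The cause was not tested. Probe sets with a suffix for shared transcripts added no member, and the authors' table equals the values used, so those alternatives gave no value. No paired analysis was possible because the array numbers run from 1 to 9 and none is shared between groups. Intensities near the floor limit the fold of JAZ7 and JAZ8 in HCT-RNAi.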

Other observations

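In the order of genes on chromosome 1 of the RefSeq annotation, JAZ5 and LOX3 lie close together, with 2 protein-coding genes between them, and JAZ6 and LOX4 do as well, with 6 between them; this was noticed after the values were seen. The named gene between JAZ5 and LOX3, AT1G17410, was called lower in both lines against WT. It changed by -0.27 in HCT-RNAi and -0.25 in ccr-1 (adjusted p = 0.00669 and 0.0104), where JAZ5 changed by -1.62 and -1.53 and LOX3 by -2.51 and -0.44. Of the 4 named genes between JAZ6 and LOX4, AT1G72460, AT1G72480 and AT1G72490 had no call in HCT-RNAi against WT, at -0.16, 0.05 and 0.02. In ccr-1 against WT AT1G72480 was higher at 0.19 (adjusted p = 0.0327), and AT1G72460 and AT1G72490 had no call at -0.04 and 0.14. AT1G72500 changed by -0.94 (HCT-RNAi) and -1.83 (ccr-1). Among the genes flanking JAZ6, AT1G72430 changed by -3.16 in HCT-RNAi (adjusted p = 5.82e-11) and 0.14 in ccr-1 (adjusted p = 0.282). Of those flanking JAZ5 and LOX3, AT1G17340 was lower in both lines, at -1.02 in HCT-RNAi and -0.52 in ccr-1. TRFL3 was higher in both, at 2.03 in HCT-RNAi and 0.65 in ccr-1. The other named flanking genes were called in either direction or had no call.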
